A study of Homo sapiens with 24 samples.

Results

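Dox250, a subline of the human B cell line Ramos that grows in 250 nM doxorubicin, was compared with Ramos itself across the genes measured on 4 bead arrays of each line. A probe was taken in when its signal stood above the negative control beads with a detection p under 0.01 on 3 or 4 arrays of either line. This held for 14934 of the 15765 probes so detected in any line of the series, out of 47323 on the array. The probes named 9110 of the 9533 genes measured in the series. Probes detected on 3 or more arrays in both lines numbered 13278, those in Ramos alone 1032 and those in Dox250 alone 624.

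Ramos was derived from Burkitt lymphoma, which arises from B cells of the germinal centre, and was grown and harvested without drug. Dox100 had been raised from Ramos in 100 nM doxorubicin, Dox250 from Dox100, and Dox500 from Dox250 in 500 nM, and each of these lines was harvested with its own concentration of drug in the medium. All lines grew in RPMI with fetal bovine serum. Each line is the product of a single selection, and its 4 arrays came from cultures split from 1 culture, so the p-values below reflect nothing but the scatter among split cultures, and this may be technical. Differences between the lines hold inherited change and any response to the drug present at harvest, and the design cannot tell these apart.

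Doxorubicin is an anthracycline that enters DNA and traps topoisomerase II on it, which leaves double-strand breaks. Cells selected in such drugs often carry more of P-glycoprotein, the ABCB1 product, an ATP-driven pump of the plasma membrane that expels doxorubicin and many unrelated compounds. Cells can also change the drug's targets, the enzymes that reduce or conjugate it, and the balance of proteins that decide on apoptosis.

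Median probe signal ran from 145.7 to 161.2 on the Ramos arrays and from 147.9 to 156.8 on the Dox250 arrays, and 14744 to 15181 and 14355 to 15077 probes were detected. Arrays of Ramos correlated at r of 0.991 to 0.994, those of Dox250 at 0.991 to 0.993, and arrays of different lines at 0.955 to 0.962, across probes. Of 5 B cell marker genes on the array 4 were detected in both lines: MS4A1 (CD20), CD79A, CD79B and CD22. PAX5, a B lineage factor, was undetected on all 8 arrays. The summed B cell marker signal was 19034 to 21585 in Ramos and 27268 to 28995 in Dox250. In bulk RNA, fewer cells of a type and less RNA per cell cannot be told apart. Levels below are log2 normalised intensities, changes are log2 differences of Dox250 minus Ramos ± SE from limma (n = 4 arrays per line), and adjusted p-values are limma's after Benjamini-Hochberg adjustment. The threshold for passing was an adjusted p under 0.05. Counts of genes that rose or fell in a list stand beside shares of 24.2% and 26.6% over all 9110 genes. The number of arrays limits the precision.

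ABCB1, on chromosome 7, was detected on none of the Ramos arrays and all of the Dox250 arrays. Its levels were 5.05, 4.49, 4.73 and 4.54 in Ramos and 9.55, 9.58, 9.61 and 9.61 in Dox250. All 4 Dox250 arrays lay far above all 4 Ramos arrays. Where a gene is undetected throughout a line its level there is only bounded, by the higher of its own signal and the lowest detected signal, and on this basis ABCB1 was at least 16.3-fold higher (adjusted p = 3.83e-17). The promoter window of ABCB1, 250 bases before to 50 bases after a transcription start, is shown because the gene is the transporter that separates the lines most. It is chr7:87600835-87601134 on the minus strand of GRCh38.p14 (RefSeq), and capitals mark CCAAT, the box bound by the factor NF-Y, searched on both strands. It is present once in each orientation, at 1 of the 2 ABCB1 starts in the table, and in 39.7% of the promoters of all 27305 genes, so its presence is a description only.
ABCB1: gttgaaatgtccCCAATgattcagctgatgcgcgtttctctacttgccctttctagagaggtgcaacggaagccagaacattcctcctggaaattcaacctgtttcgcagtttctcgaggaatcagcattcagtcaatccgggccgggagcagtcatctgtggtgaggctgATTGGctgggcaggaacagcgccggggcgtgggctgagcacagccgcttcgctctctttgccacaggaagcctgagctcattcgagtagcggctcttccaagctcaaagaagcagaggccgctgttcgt

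ABCB4, the neighbouring gene for a phospholipid pump of bile, had levels of 5.32, 5.76, 5.65 and 5.37 in Ramos, where it was detected on 2 arrays. In Dox250 the levels were 7.41, 7.30, 7.52 and 7.45, all above those of Ramos, and the rise was 1.89 ± 0.13 (adjusted p = 2.63e-11). Of 9 efflux transporter genes measured, 5 rose and 1 fell, with a median change of 0.30, against 24.2% that rose, 26.6% that fell and a median of -0.02 over all 9110 genes. When arrays were scaled by their medians 3 rose. ABCC4, a pump for nucleotides and conjugated drugs, rose by 0.53 ± 0.10 (adjusted p = 0.000113), and ABCB8, a mitochondrial transporter, fell by 0.62 ± 0.15 (adjusted p = 0.00126). The ABCG2 probe was undetected on all 8 arrays, and ABCC1 was not analysed here. Of 13 measured genes around ABCB1 on chromosome 7, which include ABCB1 and ABCB4, 4 rose and 4 fell, with a median of -0.25. CDK14, a cyclin-dependent kinase, fell by 1.02 ± 0.09 (adjusted p = 2.71e-09) and the mitochondrial carrier SLC25A40 by 0.84 ± 0.13 (adjusted p = 1.35e-05).

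Both topoisomerase II genes were lower in Dox250. TOP2A, the isoform of dividing cells, had levels of 12.35, 12.29, 12.22 and 12.41 in Ramos and 11.48, 11.54, 11.53 and 11.60 in Dox250. TOP2B, the isoform also present in resting cells, had 12.07, 12.22, 12.15 and 12.30 in Ramos and 11.66, 11.78, 11.48 and 11.53 in Dox250. In both genes the lines did not overlap. TOP2A fell by 0.78 ± 0.09 (adjusted p = 1.13e-07) and TOP2B by 0.57 ± 0.08 (adjusted p = 1.59e-06). TDP1 and TDP2, which remove topoisomerase adducts from DNA ends, fell by 1.01 ± 0.13 (adjusted p = 1.37e-06) and 0.67 ± 0.18 (adjusted p = 0.00392). ALDH1A1, an aldehyde dehydrogenase, was at 5.46, 5.26, 5.18 and 5.61 in Ramos, detected on 1 array, and at 8.74, 8.79, 8.76 and 8.67 in Dox250. It rose by 3.36 ± 0.10 (adjusted p = 3.22e-18). Of the 8 drug target and drug metabolism genes measured, 3 rose and 4 fell, with a median of -0.18.

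Across all 9110 genes 4623 passed (50.7%), of which 2202 were higher in Dox250 (24.2%) and 2421 lower (26.6%). With a fitted 2-fold change in addition, 410 were higher (4.5%) and 302 lower (3.32%). Median scaling in place of quantile normalisation moved the median change of all genes to -0.14. It turned the 2-fold split to 337 higher and 430 lower, so the balance of rises and falls depends on the scaling. That scaling used array medians over all 47323 probes, most of them undetected, as 15765 were detected in any line. Of the 2-fold calls 69 higher and 51 lower genes were undetected in the dimmer line by the probe read and had a bound under 2-fold or none. Those with none include genes of which another probe was detected there. Among 8001 genes detected on all 8 arrays 49.6% passed, 23.5% higher and 26.1% lower, and 220 were 2-fold higher (2.75%) and 168 lower (2.1%). By the fit 108 genes were 4-fold higher and 46 were 4-fold lower, and 44 against 13 at 8-fold. A set of 191 genes was undetected on every Ramos array by all probes, and 180 were undetected on every Dox250 array.

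**Figure D1:**
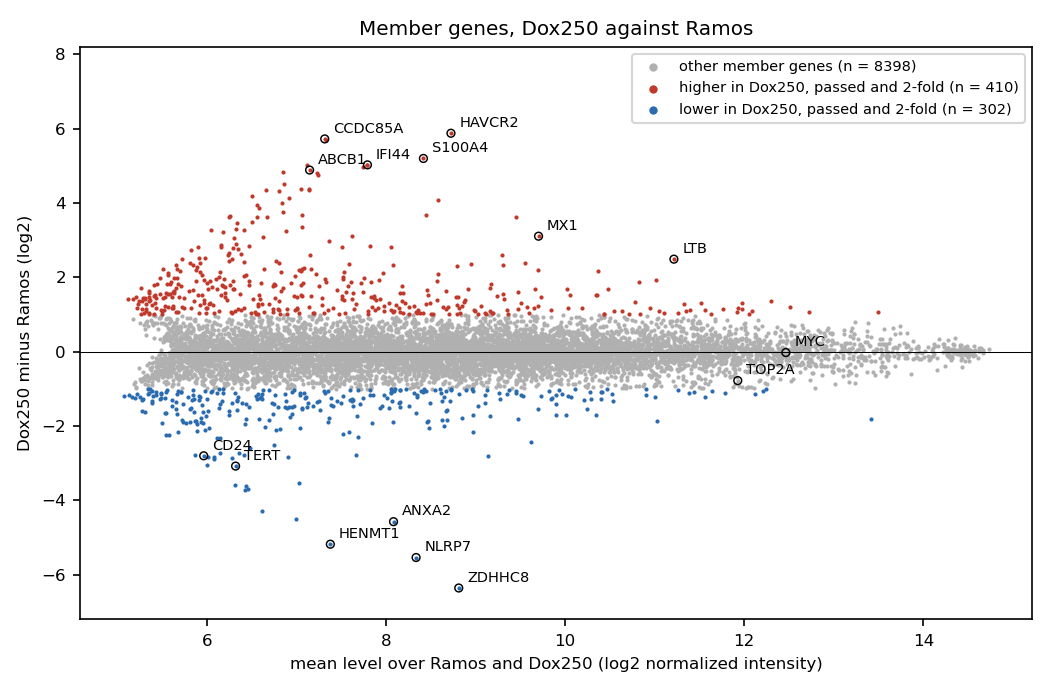
Log2 change (Dox250 minus Ramos, vertical axis) against mean log2 normalised intensity of the 8 arrays (horizontal axis) for the 9110 genes, with genes that passed at 2-fold in red (higher) or blue (lower) and the other genes in grey. The cloud is centred near 0 (median -0.02), with 410 red and 302 blue genes.

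The gene with the largest fitted rise was HAVCR2, which encodes TIM-3, an inhibitory receptor known from T and myeloid cells. Its levels were 5.75, 5.62, 5.65 and 6.12 in Ramos and 11.69, 11.69, 11.60 and 11.68 in Dox250. The difference was 5.88 ± 0.10 (adjusted p = 1.54e-22). S100A4, which binds calcium and promotes cell movement, was at 5.94, 5.91, 5.61 and 5.80 in Ramos and at 10.96, 11.04, 10.98 and 11.09 in Dox250, a rise of 5.20 ± 0.08 (adjusted p = 6.47e-23). Both genes were detected in Ramos, so the rises are from a low level and not from an undetected one. FABP6, the bile acid carrier of the ileum, was undetected in Ramos at 4.46, 4.44, 4.61 and 4.41 and stood at 10.29, 10.03, 10.16 and 10.21 in Dox250, at least 24.4-fold higher (adjusted p = 5.97e-23). CCDC85A was at least 24.5-fold, SMCO4 at least 25.4-fold, and the neurexin relative CNTNAP4 at least 16.8-fold higher. PCP4, a calmodulin-binding peptide of neurons, was at least 13.1-fold higher, ASZ1, a germ cell protein, at least 16.7-fold, and ST3GAL6, a sialyltransferase, at least 16.7-fold. SNCAIP, the synuclein partner synphilin-1, detected on 1 Ramos array, rose by 5.02 ± 0.12 (adjusted p = 1.1e-19). The other genes among the 12 largest rises were ABCB1 and the interferon-induced IFI44.

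Among the falls ZDHHC8, a protein palmitoyltransferase, had levels of 12.28, 11.98, 11.72 and 11.98 in Ramos and 5.44, 5.90, 5.78 and 5.399 in Dox250, where it was detected on 2 arrays. The fall was -6.36 ± 0.17 (adjusted p = 5.73e-19), the largest of all. NLRP7, an inflammasome-family protein also needed in the oocyte, fell from 11.17, 11.13, 11.14 and 10.98 to 5.23, 5.80, 5.50 and 5.73, a change of -5.54 ± 0.13 (adjusted p = 9.06e-20), with detection on 2 Dox250 arrays. ANXA2, which binds membranes and the S100A10 protein, fell from 10.45, 10.36, 10.30 and 10.37 to 6.13, 6.03, 5.39 and 5.62, or by 4.58 ± 0.21 (adjusted p = 1.9e-14), also with detection on 2. These genes were chosen among those with every Dox250 array below every Ramos array. HENMT1, which methylates small RNAs of the germ line, was detected on every Ramos array and on none of Dox250, and was at least 20.2-fold lower. STOX2 was at least 12.2-fold lower, PIGY, of the GPI anchor pathway, at least 8.72-fold, ADAM23 at least 6.40-fold, and ZNF275 at least 6.32-fold. TESC was at least 6.11-fold and CMTM8 at least 5.57-fold lower, and TEX30, detected on 1 Dox250 array, fell by 3.53 ± 0.15 (adjusted p = 6.15e-15). TERT, the catalytic subunit of telomerase, was at 7.93, 7.74, 7.76 and 8.01 in Ramos and undetected at 4.87, 4.65, 4.92 and 4.67 in Dox250. It was at least 4.68-fold lower (adjusted p = 5.61e-16).

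**Figure D2:**
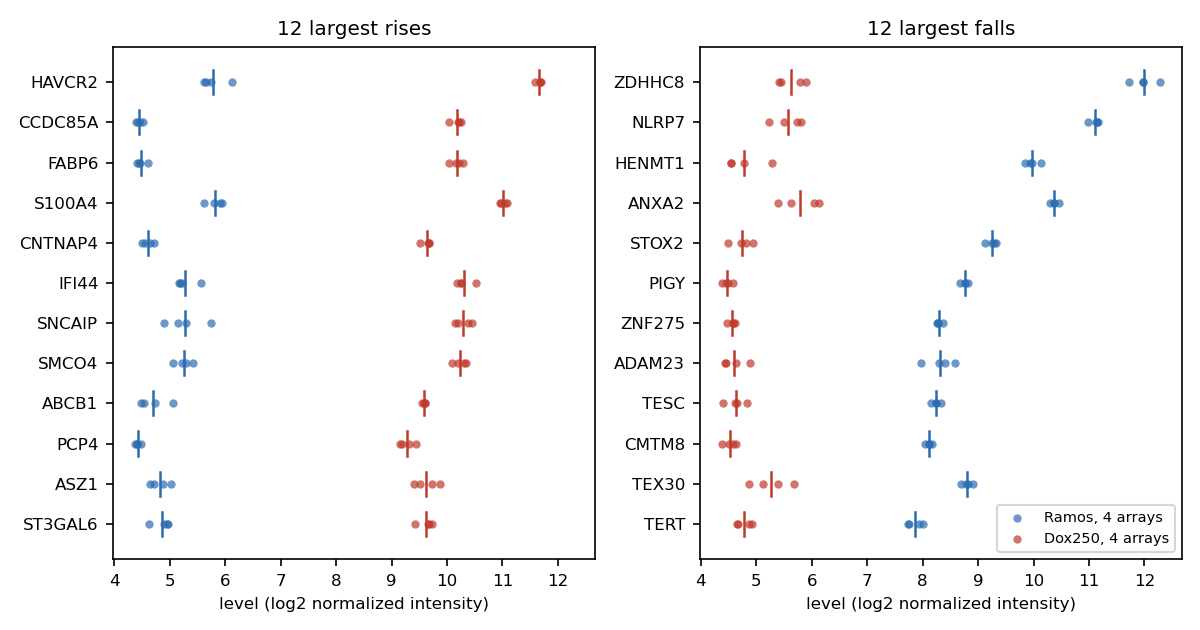
Log2 normalised intensity on each of the 8 arrays (points) for the 12 genes with the largest rises and the 12 with the largest falls, Ramos in blue and Dox250 in red, with a bar at the mean of each line. The genes were chosen among those without overlap between the lines, so the lack of overlap is not a result. HAVCR2 and ZDHHC8 show the widest gaps.

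Genes induced by interferon were higher almost throughout. Type I interferon acts through the factor ISGF3, which includes IRF9 and binds a DNA element called the ISRE in the promoters of these genes. Of 23 interferon-stimulated genes measured 20 rose and 1 fell, with a median change of 1.40, or 1.10 with undetected genes at their bounds, against 24.2% and 26.6% of all genes. Of the 12 listed genes whose probe was detected on all 8 arrays 11 rose. The windows of IFI44, EPSTI1 and MX1 are shown because these interferon-stimulated genes are among those that differ most between the lines. They run 250 bases before to 50 after a start in GRCh38.p14 (RefSeq), at chr1:78649539-78649838 on the plus strand, chr13:42992192-42992491 on the minus strand and chr21:41420308-41420607 on the plus strand. Capitals mark the ISRE core, GAAA followed by any 2 bases and GAAA again, searched on both strands, which in IFI44 is on the opposite strand.
IFI44: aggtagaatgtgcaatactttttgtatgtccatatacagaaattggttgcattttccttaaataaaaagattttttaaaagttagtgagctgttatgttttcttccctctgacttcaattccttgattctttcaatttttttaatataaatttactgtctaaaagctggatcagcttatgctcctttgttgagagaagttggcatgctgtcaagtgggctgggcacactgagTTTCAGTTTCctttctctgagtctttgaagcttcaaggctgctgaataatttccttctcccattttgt
EPSTI1: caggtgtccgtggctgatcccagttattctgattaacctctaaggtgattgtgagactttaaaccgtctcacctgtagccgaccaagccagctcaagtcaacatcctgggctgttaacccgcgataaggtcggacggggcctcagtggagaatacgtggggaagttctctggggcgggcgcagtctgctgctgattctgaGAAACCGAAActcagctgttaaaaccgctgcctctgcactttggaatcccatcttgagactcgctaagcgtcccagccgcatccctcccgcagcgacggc
MX1: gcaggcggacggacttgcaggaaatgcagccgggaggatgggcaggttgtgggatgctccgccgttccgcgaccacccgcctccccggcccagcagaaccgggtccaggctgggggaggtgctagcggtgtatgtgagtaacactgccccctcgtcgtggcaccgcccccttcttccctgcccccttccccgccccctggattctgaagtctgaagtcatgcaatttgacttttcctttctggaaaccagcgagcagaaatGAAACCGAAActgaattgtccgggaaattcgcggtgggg

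The core was found in the windows of 14 of 18 listed interferon-stimulated genes in the promoter table (77.8%) and of 1195 of 27305 genes in all (4.38%). Of the 14 genes with it 12 rose, and the only 4 genes without it all rose. IFI44, a cytoplasmic protein with antiviral activity, was undetected in Ramos at 5.18, 5.16, 5.56 and 5.21 and stood at 10.26, 10.53, 10.25 and 10.18 in Dox250. This is at least 26.8-fold higher (adjusted p = 2.12e-16). EPSTI1 was undetected at 4.70, 4.74, 4.81 and 4.82 and reached 8.15, 8.19, 7.93 and 7.93, at least 5.61-fold higher (adjusted p = 9.25e-15). MX1, a GTPase that blocks viral replication, was detected in both lines and rose from 8.47, 8.01, 7.89 and 8.22 to 11.26, 11.43, 11.15 and 11.19, or by 3.11 ± 0.16 (adjusted p = 2.29e-13). The lines did not overlap for any of these. IFI44L was higher too (adjusted p = 8.69e-13), but another of its probes was detected in Ramos, so no fold is given. IFITM2 was the member that fell, undetected in Dox250 and at least 6.46-fold lower, and its relative IFITM3 differed by -0.02. Both were singled out after their values were seen, and their sequences are close enough that probes may share signal.

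Of 18 interferon signalling factors measured 9 rose and 4 fell, with a median of 0.16. With median scaling 7 rose and 5 fell, with a median of 0.03. The 4 falls were near the 26.6% of all genes. IRF7, the factor that drives interferon alpha genes, had levels of 6.85, 6.90, 7.01 and 6.91 in Ramos and 9.23, 9.34, 9.21 and 9.18 in Dox250. It rose by 2.32 ± 0.12 (adjusted p = 2.64e-13). IRF9 rose by 1.68 ± 0.12 (adjusted p = 7.68e-11), and TLR9, the endosomal sensor of unmethylated DNA, by 1.23 ± 0.12 (adjusted p = 1.16e-08). SOCS1, which inhibits the JAK kinases, fell by 1.07 ± 0.12 (adjusted p = 7.59e-08).

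Subunits and targets of NF-kB, the factor family activated by TNF and CD40 signals, were also mostly higher. Of these 20 genes 15 rose and 1 fell, and the median was 1.04 (0.89 with undetected genes at their bounds). TNF, EBI3 and CD44 were undetected in Ramos and were measured only through Dox250. Of the 16 listed genes detected on all 8 arrays 11 rose and 1 fell, against 23.5% and 26.1% of all genes so detected. LTB, the membrane anchor of lymphotoxin, was at 10.20, 9.85, 9.88 and 9.94 in Ramos and at 12.69, 12.46, 12.36 and 12.33 in Dox250, without overlap, and rose by 2.49 ± 0.09 (adjusted p = 1.04e-16). Its partner LTA rose by 2.30 ± 0.13 (adjusted p = 1.13e-12). TNF, undetected in Ramos, was higher by at least 2.87-fold (adjusted p = 2.89e-10). CD40, the receptor for T cell help, rose by 1.78 ± 0.12 (adjusted p = 4e-11). NFKB1, a subunit gene and the 1 fall, was singled out after its value was seen and changed by -0.36, and the count of falls was 3 without Dox250 replicate 2, 2 without Ramos replicate 2 and 3 with median scaling. The LTB window, chr6:31582376-31582675 on the minus strand of GRCh38.p14 (RefSeq), is shown because LTB had the largest rise of the list, and capitals mark a kappaB-type motif, GGGA followed by any 2 bases and TTCC, searched on both strands and found here on the opposite one.
LTB: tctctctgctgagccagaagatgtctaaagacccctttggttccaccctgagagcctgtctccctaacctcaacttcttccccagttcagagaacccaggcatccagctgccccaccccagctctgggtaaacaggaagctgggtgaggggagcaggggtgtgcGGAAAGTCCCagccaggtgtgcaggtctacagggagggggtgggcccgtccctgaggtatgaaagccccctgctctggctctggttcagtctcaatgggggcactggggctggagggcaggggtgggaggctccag

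This motif was found in the windows of 8 of 16 listed NF-kB genes in the promoter table (50%) and of 537 of all genes (1.97%). Of the 8 genes with it 4 rose, and of the genes without it all but RELA rose, 7 in number.

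Genes of antigen presentation, lysosomes and adhesion were higher more often than lower. Of 15 MHC class I genes 9 rose and 1 fell, and their median was 0.34. HLA-B, a class I heavy chain, was at 11.50, 11.70, 11.64 and 11.59 in Ramos and at 13.10, 12.93, 12.97 and 12.93 in Dox250, and rose by 1.38 ± 0.08 (adjusted p = 3.86e-12). HLA-F rose by 1.51 ± 0.07 (adjusted p = 7.32e-14) and HLA-C by 0.80 ± 0.12 (adjusted p = 5.96e-06), while ERAP2, a peptide-trimming enzyme of the endoplasmic reticulum, fell by 0.81 ± 0.11 (adjusted p = 1.79e-06). Of 11 class II genes 7 rose and the other 4 did not pass, and the median was 0.30. HLA-DQB1 was at least 2.40-fold higher, and HLA-DPA1 and HLA-DMA rose by 0.69 ± 0.08 and 0.64 ± 0.08. HLA-DRB4 rose by 0.68 ± 0.10, with another of its probes opposite in sign. HLA chains are alike in sequence and their probes may share signal. CCAAT, the letters within the Y box of class II promoters, was found in 6 of 7 class II genes in the promoter table (85.7%) against 39.7% of all genes. Of the 6 genes with it 3 rose, and the only 1 without it, HLA-DPA1, rose.

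Of 24 lysosome genes 16 rose and 1 fell, and the median was 0.52. GRN, the progranulin precursor, was at 9.003, 9.058, 9.43 and 9.22 in Ramos and at 10.85, 10.89, 10.79 and 10.94 in Dox250, a rise of 1.69 ± 0.09 (adjusted p = 3.08e-13). The protective protein cathepsin A gene CTSA rose by 1.49 ± 0.13, its partner, the sialidase NEU1, by 1.17 ± 0.09, and the protease CTSZ by 1.04 ± 0.10. NPC1, the cholesterol exporter and the 1 fall, was singled out after its value was seen and changed by -0.26. The count of falls was 2 without Ramos replicate 2, 0 without Ramos replicate 4 or Dox250 replicate 1 or 3, and 3 beside 14 rises with median scaling. Of 18 adhesion receptors 14 rose and 1 fell, and the median was 0.87 (0.83 with bounds). Of the 14 detected on all 8 arrays 10 rose and 1 fell. CD48, a SLAM-family ligand, rose by 1.31 ± 0.07 (adjusted p = 2.6e-13), PECAM1, detected on 1 Ramos array, by 1.38 ± 0.11 (adjusted p = 1.22e-09), and SLAMF7 was at least 1.99-fold higher. CD9, a tetraspanin, was higher with no fold given (adjusted p = 7.46e-11). ALCAM, the 1 fall, was singled out after its value was seen and changed by -0.67, and 2 fell with median scaling. Of 10 S100 and annexin genes 4 rose and 2 fell. Beside S100A4 and ANXA2 they included S100A6, up by 1.76 ± 0.16 (adjusted p = 3.95e-09), and ANXA6, at least 1.69-fold higher.

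Of 20 ER chaperone genes 14 rose and 1 fell (median 0.30), while 9 rose and 3 fell with median scaling. AGR2, a disulphide isomerase of secretory epithelia, was undetected in Ramos at 4.62, 4.52, 4.86 and 4.56 and stood at 8.96, 9.17, 8.92 and 8.82 in Dox250, at least 10.6-fold higher (adjusted p = 3.37e-19). HSPA5, the BiP chaperone, rose from 9.30, 8.99, 9.06 and 8.94 to 10.25, 10.01, 10.00 and 10.23, or by 1.05 ± 0.09 (adjusted p = 1.68e-09). HSP90B1 rose by 1.16 ± 0.07 (adjusted p = 3.68e-12), and EDEM1, which hands misfolded glycoproteins to degradation, fell by 0.82 ± 0.09 (adjusted p = 8.93e-08).

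Transcription factors of the B lineage went the other way. Of 22 measured 1 rose and 12 fell, with a median of -0.32. MEF2C, a factor of B cell proliferation, was at 7.93, 7.62, 7.70 and 8.03 in Ramos and at 6.45, 6.17, 6.16 and 6.39 in Dox250, and fell by 1.53 ± 0.18 (adjusted p = 4.48e-07). EBF1, which specifies the lineage, fell from 8.29, 8.34, 8.46 and 8.54 to 7.26, 7.26, 7.17 and 7.22, or by 1.18 ± 0.13 (adjusted p = 9.24e-08). BACH2, which holds back plasma cell fate, fell by 0.98 ± 0.08 (adjusted p = 2.48e-09), and the coactivator POU2AF1 by 0.91 ± 0.07 (adjusted p = 9.68e-11). XBP1, the plasma cell and ER stress factor and the only rise, was singled out afterwards and changed by 0.80. Of 4 measured B cell markers MS4A1 rose by 1.01 ± 0.10 (adjusted p = 1.55e-08), CD79A by 0.56 ± 0.07 and CD79B by 0.48 ± 0.07, and CD22 fell by 0.55 ± 0.12.

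Of 21 B cell receptor signalling genes 6 rose and 6 fell, near the 24.2% and 26.6% of all genes, and 5 and 10 with median scaling. PTPN6, the inhibitory phosphatase SHP-1, rose by 1.502 ± 0.116 (adjusted p = 3.45e-10) and CD72, a coreceptor that recruits it, by 1.23 ± 0.08 (adjusted p = 3.35e-11). PIK3CD, the lymphocyte PI3 kinase subunit, fell by 1.12 ± 0.17 (adjusted p = 7.7e-06), and SYK, the proximal kinase, by 0.75 ± 0.07 (adjusted p = 5.57e-09). Of 21 germinal centre and pre-B surface genes 8 rose and 5 fell, and 8 and 7 with median scaling. The 5 falls were near the share over all genes. CD24, a glycoprotein of early B cells, was at 7.71, 7.11, 7.20 and 7.43 in Ramos and undetected at 4.53, 4.62, 4.55 and 4.53 in Dox250, at least 3.32-fold lower (adjusted p = 3.03e-17). TNFRSF13C, the BAFF receptor, fell by 1.501 ± 0.161 (adjusted p = 7.33e-08). CXCR5, the receptor that leads B cells to follicles, rose by 1.63 ± 0.09 (adjusted p = 1.07e-12), and SERPINA9, a germinal centre serpin, was at least 3.34-fold higher.

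MYC, the translocated oncogene of Burkitt lymphoma, was detected on all 8 arrays and overlapped between lines. Its levels were 12.44, 12.45, 12.55 and 12.47 in Ramos and 12.39, 12.44, 12.55 and 12.43 in Dox250, a difference of -0.02 ± 0.08 (adjusted p = 0.832). BCL2, the apoptosis inhibitor, was detected on 1 Ramos array at levels of 4.91, 4.90, 5.18 and 5.63 and on all Dox250 arrays at 6.07, 6.57, 6.25 and 6.40. It rose by 1.17 ± 0.16 (adjusted p = 3.33e-06). Of 10 anti-apoptotic genes 4 rose and 2 fell, but 3 and 3 with median scaling. They included BAG3, up by 1.01 ± 0.14, BCL2L1, up by 0.73 ± 0.09, and BIRC2, which fell by 0.70 ± 0.11. In the pro-apoptotic list 5 of 16 genes rose and 3 fell, but 4 and 5 with median scaling, and 3 and 2 of 11 without chromosomes 7, 12 and 20. The BH3-only genes BMF, BCL2L11 (BIM) and HRK rose by 1.89 ± 0.18, 1.86 ± 0.11 and 1.37 ± 0.15, while DIABLO rose by 0.60 ± 0.09. Of 19 p53 targets 9 rose and 5 fell, and their median was 0.07, against -0.07 with median scaling. SESN1 rose by 0.87 ± 0.13, MDM2 by 0.72 ± 0.20 with overlapping lines, and the death receptor FAS was at least 1.32-fold higher, while ZMAT3 fell by 0.87 ± 0.09.

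Of 21 double-strand break repair genes 5 rose and 5 fell, near the 24.2% and 26.6% of all genes, and 1 and 9 with median scaling. RNF8, the ubiquitin ligase of break signalling, rose by 1.03 ± 0.10 (adjusted p = 1.17e-08), and XRCC2, a homologous recombination gene on chromosome 7, fell by 0.99 ± 0.11 (adjusted p = 1.84e-07). H2AX, the histone phosphorylated at breaks, fell by 0.70 ± 0.11, and TP53BP1 by 0.47 ± 0.09. Of 32 replication genes 7 rose and 8 fell, also near those shares, and 4 and 12 with median scaling. Without Dox250 replicate 1, 4 rose. GINS3 rose by 0.80 ± 0.09, and LIG1, POLD1 and MCM7 were at -0.85 ± 0.13, -0.74 ± 0.10 and -0.65 ± 0.08. Of 28 mitotic genes 5 rose and 6 fell, among them the kinase CDK1 at 0.85 ± 0.10, TPX2 at 0.48 ± 0.09, BUB1 at -0.56 ± 0.10 and CENPF at -0.54 ± 0.10. The mitotic falls numbered 3 without Ramos replicate 3, and without chromosomes 7, 12 and 20 the counts were 2 up and 6 down of 24. Of 27 ribosome biogenesis genes 8 rose and 5 fell, while 3 rose and 9 fell with median scaling and 3 fell without Ramos replicate 2, so no direction is given. NOLC1 changed by -0.76 ± 0.09, NOP2 by 0.60 ± 0.10, NOP56 by 0.50 ± 0.08 and PES1 by 0.45 ± 0.13, the last with overlapping lines and not past the threshold with median scaling. Of 17 chromatin silencing enzymes 2 rose and 7 fell, and the count of falls was 3 without Ramos replicate 4 or Dox250 replicate 1 and 4 without Ramos replicate 1 or Dox250 replicate 2. HDAC6 changed by -0.56 ± 0.12, SIRT1 by -0.39 ± 0.12, HDAC8 by 0.39 ± 0.12 and the methyltransferase DNMT1 by -0.34 ± 0.07.

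Among stress and metabolic genes, those of the ATF4 response fell more often than they rose. Of 28 measured 5 rose and 15 fell, with a median of -0.22. SLC38A2, a glutamine and alanine carrier, was at 7.41, 7.08, 7.17 and 7.36 in Ramos and undetected at 4.53, 4.40, 4.47 and 4.51 in Dox250, at least 3.08-fold lower (adjusted p = 5.6e-12). STC2 fell by 1.03 ± 0.11 (adjusted p = 8.41e-08), while ATF3 rose by 1.12 ± 0.13 and PPP1R15A, a phosphatase subunit that reverses the response, by 0.99 ± 0.10. For glycolysis and hypoxia, 27 genes were measured, 7 rose, 12 fell and the median was -0.12. The glucose carrier SLC2A3 was at least 4.36-fold higher, PFKM rose by 1.10 ± 0.07 and ADM by 1.11 ± 0.09, and PFKFB4 was at 0.76 ± 0.28 (adjusted p = 0.0306) with overlapping lines. Of 24 glutathione and NRF2 genes 11 rose and 5 fell, with the microsomal transferases MGST1 and MGST2 up by 1.69 ± 0.09 and 0.85 ± 0.07, TXNRD1 up by 0.57 ± 0.08 and GPX4, which reduces lipid peroxides, at -0.70 ± 0.08. Of 29 oxidative phosphorylation genes 8 rose and 2 fell, but 2 and 2 with median scaling, and the examples were COX6A1 at 0.63 ± 0.07, NDUFA9 at 0.62 ± 0.07, CYC1 at 0.32 ± 0.08 and COX5B at 0.32 ± 0.07. Of 18 cholesterol synthesis genes 7 rose and 4 fell, among them EBP at 0.88 ± 0.10, NSDHL at 0.57 ± 0.08, HSD17B7 at -0.81 ± 0.12 and PMVK at -0.75 ± 0.10. Of 19 heat shock genes, cytosolic and mitochondrial, 3 rose and 4 fell. HSPB1, the small heat shock protein HSP27, fell from 12.41, 12.38, 12.22 and 12.34 to 11.23, 11.26, 11.17 and 11.24, or by 1.11 ± 0.07 (adjusted p = 4.43e-12), and lies on chromosome 7, as does DNAJB6 at -0.82 ± 0.11, of which another probe was opposite in sign. CCT2 rose by 0.71 ± 0.10.

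**Figure D3:**
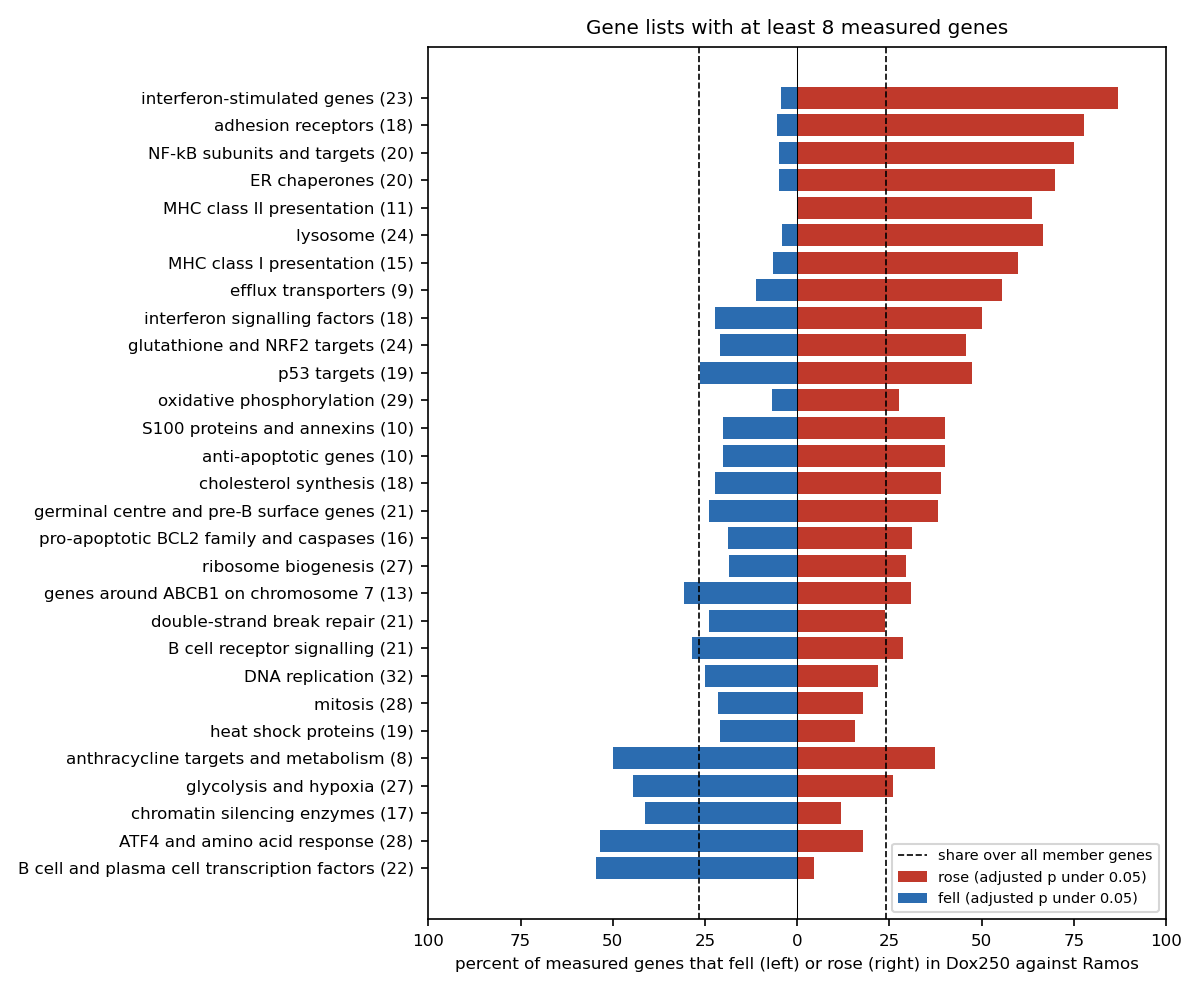
Percent of the measured genes of each list that rose (red, to the right) or fell (blue, to the left) in Dox250 against Ramos. Passing was at an adjusted p under 0.05, and the number measured is in brackets. Lists are ordered by rises minus falls as a share of the genes measured. Dashed lines mark the shares over all genes (24.2% and 26.6%). Interferon-stimulated genes stand at the top with 20 of 23 risen and B cell transcription factors at the bottom with 12 of 22 fallen, while with median scaling ribosome biogenesis turns from 8 up and 5 down to 3 and 9.

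Most markers of other cell types were undetected in both lines. Of 10 T and NK markers none was detected on 3 arrays of Ramos and 1, PRF1 (perforin), was in Dox250, at least 1.74-fold higher. Their summed signal was 269.2 to 289.2 in Ramos and 319.1 to 374.8 in Dox250, and CD3D, CD3E, CD3G, CD7, NKG7, GNLY, CD8A and CD4 were undetected on all 8 arrays. Of 10 myeloid markers 2 were detected in Ramos and 3 in Dox250, with sums of 617.5 to 667.5 and 669.9 to 760.9, and CD14, LYZ, CSF1R, ITGAM, S100A8, S100A9 and MPO were undetected on all 8. CST3, cystatin C, was at least 3.998-fold higher in Dox250 and FCGR3A fell by 0.60 ± 0.18. Of 10 epithelial and stromal markers VIM was detected in Ramos, and VIM and PECAM1 in Dox250, with sums of 669.8 to 739.1 and 715.1 to 805.2. None of 3 erythroid markers on the array was detected on 3 arrays of either line.

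When the 9106 genes with a known position were grouped by chromosome, chromosomes 12 and 20 stood apart and chromosome 7 had the lowest median. On chromosome 12, 328 of 501 genes rose and 28 fell, with a median change of 0.45. On chromosome 20, 184 of 265 rose and 18 fell, with a median of 0.48. On chromosome 7, 61 of 449 rose and 201 fell, with a median of -0.21. The medians of all other chromosomes lay between -0.16 (chromosome 13) and 0.01 (chromosome 6). On chromosome 13, 28 of 157 genes rose and 64 fell (40.8%), against 44.8% that fell on chromosome 7. For Dox250 minus Dox100 the medians of chromosomes 12 and 20 were -0.0028 and -0.014. Chromosome 7 had a median of -0.13, and 142 of its genes fell from Dox100 to Dox250. Blocks of 25 genes differed along it. The 150 consecutive measured genes from ANKIB1 to CYREN had a median of -0.50 against Ramos (15 rose, 104 fell) and of -0.49 against Dox100 (3 rose, 109 fell), and of 0.0053 for Dox500 minus Dox250. The other 299 genes had medians of -0.12 and 0.0011 (46 rose and 97 fell, and 22 rose and 33 fell). The block with ABCB1 lies just before this stretch, with medians of -0.17 and -0.11. Its measured genes after ABCB1, SLC25A40 to CYP51A1, all had negative fitted changes against Dox100. CLDN12 (-1.12), CDK14 (-0.75) and MTERF1 (-0.44) among them passed, so the start of the stretch is only a block edge. The stretch was chosen after its values were seen and is described without a test, and DNA copy number was not measured.

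**Figure D4:**
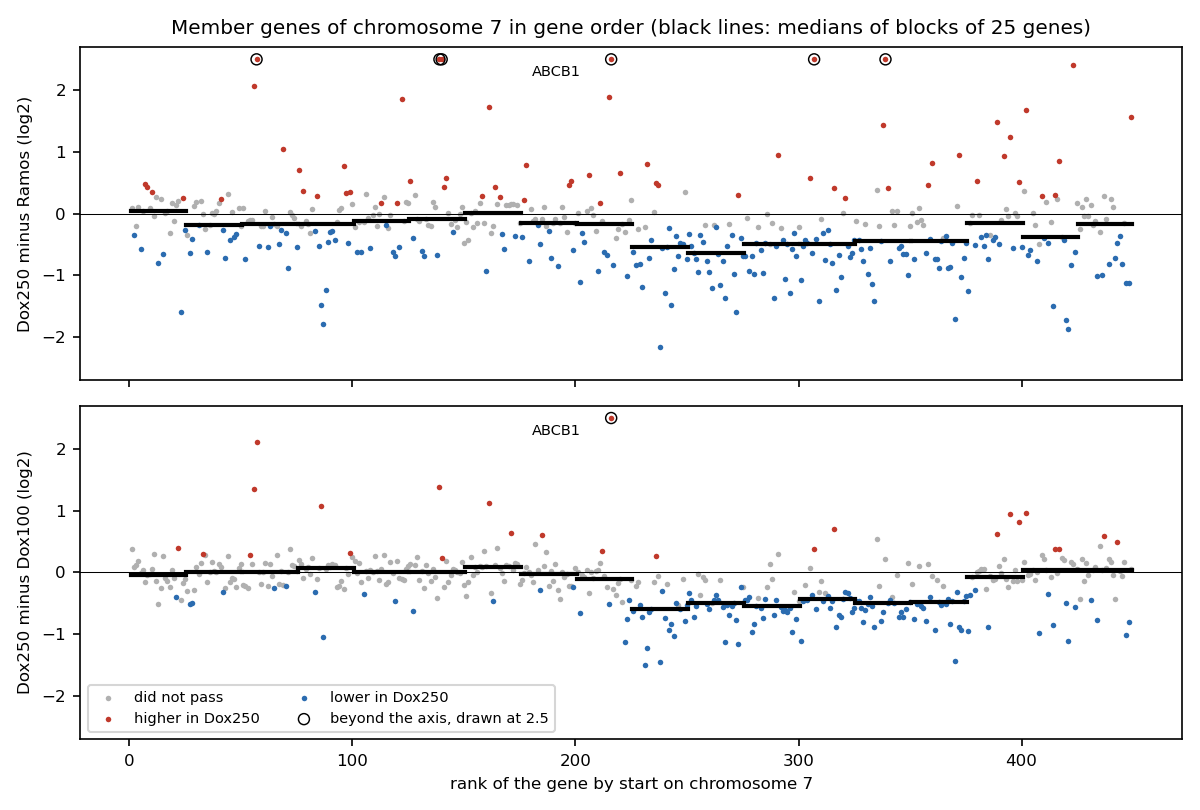
Log2 change of each measured gene of chromosome 7 in genome order (horizontal axis, gene rank), Dox250 minus Ramos above and Dox250 minus Dox100 below, with medians of blocks of 25 genes as black lines, red and blue for genes that passed higher or lower, and circled points drawn at the edge of the axis. The blocks of 150 genes beyond ABCB1 have a median of -0.50 above and -0.49 below, and the other blocks of the lower panel lie closer to 0.

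Several list counts draw on these chromosomes, and without chromosomes 7, 12 and 20 the shares over the remaining 7895 genes were 20.6% up and 27.5% down. The interferon-stimulated list then had 16 of 18 up and 1 down, NF-kB subunits and targets 14 of 19 and 1, adhesion receptors 12 of 16 and 1, lysosome genes 13 of 21 and 1, and ER chaperones 11 of 16 and 1. The ATF4 list had 2 of 19 up and 11 down. Glycolysis went to 3 of 22 up and 12 down, and glutathione genes to 6 of 19 up and 5 down. Of 6 remaining efflux genes 3 rose. Some list genes were not detected on every array. With all chromosomes and only genes detected on all 8 arrays, 14 of 22 lysosome genes rose and 1 fell, and 13 of 19 ER chaperones and 1. For class II genes the counts were 5 of 9 up and 0 down, for germinal centre genes 6 of 17 and 3, and for p53 targets 5 of 15 and 5.

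Dox250 was set against Dox100, the line it came from, and Dox500, raised from it, with the same Dox250 arrays in all comparisons. Against Dox100, 1258 of 8994 genes passed (14%), 485 higher (5.39%) and 773 lower (8.59%), of which 38 (0.423%) and 62 (0.689%) were 2-fold. Median scaling gave 31 and 77. Between Dox250 and Dox500, 1371 of 8915 passed (15.4%), 741 higher in Dox500 (8.31%) and 630 lower (7.07%), with 40 (0.449%) and 31 (0.348%) at 2-fold, or 34 and 37 with median scaling. ABCB1 was the largest rise from Dox100. Its mean levels were 4.70 in Ramos, 5.01 in Dox100, 9.59 in Dox250 and 11.31 in Dox500. The Dox100 arrays read 4.77, 4.84, 5.72 and 4.73, of which 1 was detected, and none reached the Dox250 arrays. The step to Dox250 was 4.58 ± 0.16 (adjusted p = 1.96e-15) and the step to Dox500 1.73 (adjusted p = 1.03e-07). ABCB4 changed by -0.52 at the step to Dox250 (adjusted p = 0.00868) and by -0.43 at the step to Dox500 (adjusted p = 0.0262).

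NLGN4X and CADM1 were lowest in Dox100 among these lines. NLGN4X, a neuroligin, had means of 10.00, 4.96, 8.90 and 9.78 in Ramos, Dox100, Dox250 and Dox500, and the adhesion molecule CADM1 8.89, 5.35, 8.21 and 8.78. CADM1 rose by 2.86 ± 0.15 from Dox100 (adjusted p = 2.83e-12) and was at -0.68 ± 0.15 against Ramos. NLGN4X was higher than in Dox100 (adjusted p = 5.7e-18), with no fold given, and was at -1.11 ± 0.10 against Ramos. PHACTR3 and GAPT were undetected in Ramos and Dox100 and at least 3.14-fold and 3.11-fold higher in Dox250 than in Dox100. Other genes fell at the step. TEX30 went from 8.72 to 5.26 (-3.46 ± 0.15), COBLL1 from 9.93 to 6.53 (-3.41 ± 0.10), and ZDHHC8, already lower in Dox100, from 8.95 to 5.63 (-3.32). The adhesion receptor CD44 had means of 4.95, 8.57, 6.04 and 5.61, and fell by 2.53 ± 0.14 from Dox100. HBE1, the embryonic globin, was detected in Dox100 only among these lines and was at least 3.21-fold lower in Dox250.

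At the step to Dox500, NLRP11 rose by 2.16 ± 0.11 (means 4.74, 8.11, 8.38 and 10.53), and AFAP1-AS1 by 1.92 ± 0.13. FGD5 and FBP1, undetected in Dox250, were at least 2.43-fold and 2.69-fold higher in Dox500, and SNAR-A1, a multicopy noncoding RNA, rose by 1.96 ± 0.41 (adjusted p = 0.00245). Genes high in Dox250 and lower after it included PCP4 (4.42, 7.63, 9.27 and 6.07; -3.20 ± 0.11), ASZ1 (4.82, 9.41, 9.63 and 6.78; -2.85 ± 0.16) and COBL (5.09, 6.78, 8.16 and 5.41; -2.75 ± 0.19). PRODH, which degrades proline, was detected in Dox250 alone of these lines and was at least 2.02-fold lower in Dox500. CD9 was undetected in Dox500 and lower (adjusted p = 4.67e-09), with no fold given.

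**Figure D5:**
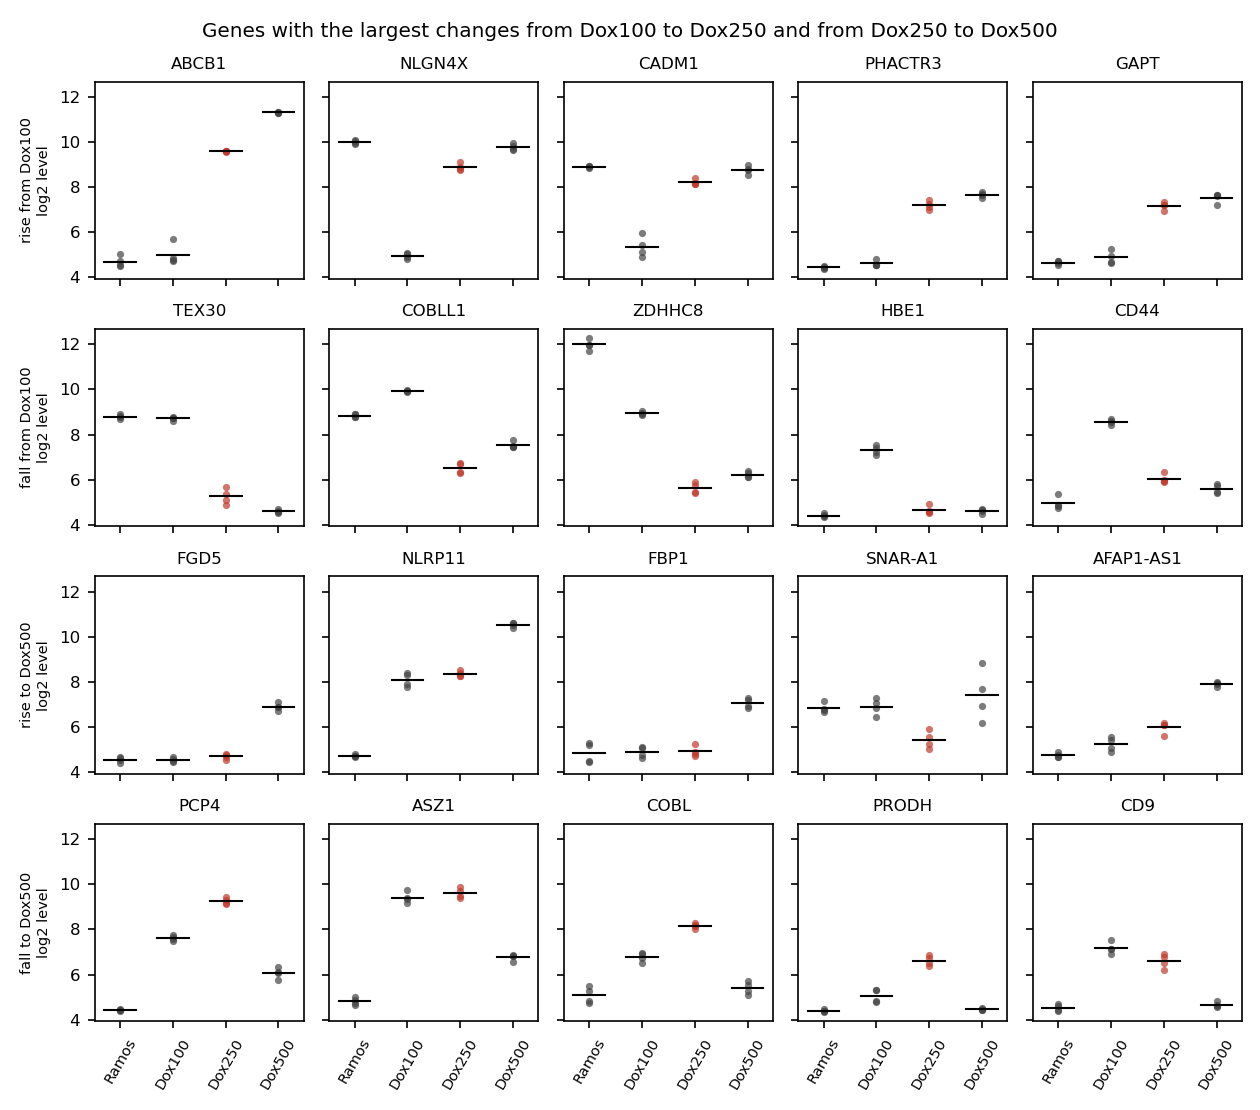
Log2 normalised intensity on the 4 arrays of Ramos, Dox100, Dox250 and Dox500 (points) for the genes with the largest changes at the steps into and out of Dox250, with a bar at each mean and Dox250 in red. ABCB1 has means of 5.01 in Dox100, 9.59 in Dox250 and 11.31 in Dox500, while PCP4 and COBL have their highest mean of the 4 lines in Dox250.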

How the data were processed

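Labelled RNA of each culture had been measured on its own Illumina bead array. The intensity values deposited by the authors are mean bead signals per probe, unnormalized per the file headers, and the deposited p-values test whether a probe is detected on an array. A table of log2 values deposited by the authors served as an alternative: on all 24 arrays each column correlated best with its own array (lowest r 0.9998), and the values lay within 0.00505 of log2 quantile-normalised signals without background correction. Per the submitters' processing notes lumi was used, and scanner software and annotation version are not given in the sources here.

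Background was corrected with normexp using controls inferred from the detection p-values (nec, offset 16), and arrays were quantile-normalised and taken to log2. The annotation gave 1 symbol for 30113 of all probes, several for 8 and none for 17202, with symbols updated for 30074 and kept for 39, and 3016 of the probes analysed were not named. Genes were read from their brightest probe (2319 had more than 1). Tests used limma 3.58.1 in R 4.3.3, with a mean per line over 24 arrays (18 residual and 4.00 prior degrees of freedom) and Benjamini-Hochberg adjustment over 15765 probes. The fit was also run on simulated arrays with few changed probes and independent noise, unlike these data, where 50.7% of genes passed. That run is not used as support here. Groups came from the sample labels.

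Named genes were the 12 largest rises and falls among genes that passed without overlap of arrays, 5 and 5 for each step between lines, the up to 4 most changed genes that passed in each gene list, and 9 genes named in any case. The 34 gene lists, the members and this rule were chosen with earlier results of these data known. Chromosomes came from RefSeq GRCh38.p14. The alternatives were the deposited log2 values, median scaling, omission of the background correction or of the filter, detection on all 8 arrays, a fit over these probes only, the mean of a gene's probes, dropping the fold floor, a stricter adjusted p, a trend on intensity, a fit to the 8 arrays alone, a block for replicate number and each array left out. Lists without chromosomes 7, 12 and 20 were added after seeing the data.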

Additional observations from a re-analysis of the deposited data

Results flagged for a closer look

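In 12 of 306 groups of 4 arrays (153 named genes, Ramos and Dox250), 1 array stood apart from the other 3 by Dixon's criterion, and chance gives about 1 in 20. In Ramos, IFI44 stood at 5.56 in replicate 3 (others 5.16 to 5.21), CTSZ at 7.98 in replicate 2 (8.39 to 8.46), CCT2 at 11.88 in replicate 1 (12.23 to 12.29) and HDAC8 at 6.64 in replicate 1 (6.18 to 6.23). In Dox250, MDM2 stood at 6.76 in replicate 2 (6.26 to 6.31), CADM1 at 8.39 in replicate 2 (8.14 to 8.17), GINS3 at 9.47 in replicate 4 (9.70 to 9.72) and NSDHL at 10.30 in replicate 4 (10.24 to 10.25). CCT2 stood at 13.05 in Dox250 replicate 4 (12.80 to 12.84), DNAJB6 at 9.71 in replicate 1 (10.10 to 10.15), CNTNAP4 at 9.52 in replicate 1 (9.66 to 9.68) and HAVCR2 at 11.60 in replicate 3 (11.68 to 11.69).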

How the results depend on the processing

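Dox250 against Ramos gave 410 higher and 302 lower, but 147 and 88 without background correction, 147 and 89 on the deposited log2 values, 220 and 168 for genes detected on all 8 arrays, and 2202 and 2421 with no fold floor. For Dox250 against Dox100 these were 13 and 12, 13 and 12, 24 and 23, and 485 and 773, against 38 and 62. For Dox500 against Dox250 they were 6 and 3, 6 and 3, 18 and 14, and 741 and 630, against 40 and 31. Detection on all arrays restricts the genes counted, and dropping the fold floor counts every gene that passed. For the background correction and the deposited values the cause was not tested. Leaving out each array gave 396 to 421 higher and 297 to 328 lower for Dox250 against Ramos, 37 to 44 and 59 to 77 against Dox100, and 35 to 49 and 33 to 40 for Dox500 against Dox250.

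The replicate number as a block left the counts at 410 and 302, 38 and 62, and 40 and 31, and changed no call of the 153 named genes. Deviations of same-numbered Ramos and Dox250 arrays correlated at 0.05, -0.11, 0.07 and 0.02, so the numbers do not pair the arrays. The fitted ABCB1 change stayed between 4.82 and 5.01 with each array left out. The MYC change, which did not pass, ran from -0.0571 to 0.0001 with each array left out and turned sign without Ramos replicate 3 (0.0001), of which the cause was not tested. PES1, PFKFB4, CYC1, COX5B and HDAC8 no longer passed with median scaling, PFKFB4 also not without the filter and in 6 of the fits with an array left out. With an array left out, 17 of the list counts moved by over 1.5 times, and the others did not. Signal near background limits what genes undetected in a line can show to a bound.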
